A study of Mus musculus with 6 samples.

Results

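The MEIS, PBX and PKNOX genes encode homeodomain cofactors of the HOX transcription factors. The 8 genes Meis1, Meis2, Meis3, Pbx2, Pbx3, Pbx4, Pknox1 and Pknox2 were examined here, out of 55487 genes in the deposited table. They were chosen by family membership, by matching the Ensembl gene ID of each row to its mouse symbol. The rule uses no measured value, although earlier results of these data were known when the family was chosen.

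RNA was sequenced from GFP+ bone marrow cells of the femora and tibiae of mice carrying MLL-AF9 leukemia, an acute myeloid leukemia driven by a fusion of the MLL and AF9 genes. In all 6 libraries the leukemia cells came from CD45.2+ C57BL/6 donors with Mx1-Cre, Brd9 fl/fl and the transduced MLL-AF9 cDNA, and the recipients were irradiated CD45.1+ mice that were given 1000 leukemic cells each. The 3 libraries labelled PBS came from recipients injected with PBS, and the 3 libraries labelled pIpC from recipients given 3 doses of pIpC at 20 mg/kg, a double-stranded RNA mimic that evokes interferon. Collection was labelled as 10 days after injection in both groups, and no age is stated in the labels. Cre is driven by the interferon-responsive Mx1 promoter, which is active in many cell types, so deletion depends on each cell's response to pIpC, and every PBS control carried the same floxed alleles, Cre and oncogene. Irradiated recipients keep some cells of their own. The labels do not state that the libraries of a group came from separate animals, so p-values measure only the spread between these libraries, which may be technical.

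HOX proteins bind DNA weakly and with little selectivity on their own, and gain both when bound to a partner of the TALE class, which is named for a loop of 3 additional amino acids in the homeodomain. PBX proteins bind HOX proteins directly, whereas MEIS and PKNOX (also called PREP) proteins compete for a shared surface of PBX, keep it in the nucleus and add a DNA contact of their own. In MLL-rearranged leukemia HOXA9 and MEIS1 are central to self-renewal of the leukemic cells, PBX3 is the PBX partner most closely tied to them, and PKNOX1 has been described as opposing MEIS1.

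Values are deposited normalized counts, which are proportional to reads within a library. Recovered reads on genes ranged from 19277439 to 22378154 in the PBS libraries and from 22348517 to 23586722 in the libraries labelled pIpC, and 1 read was worth between 0.865 and 1.13 normalized counts depending on the library. Brd9, the targeted gene, gave 1926.8, 1946.4 and 1631.9 normalized counts in PBS replicates 1 to 3 and 2036.0, 2263.0 and 2011.4 in those labelled pIpC, a log2 difference of 0.20 with a standard error (SE) of 0.13 and an adjusted p of 0.259. A whole-gene count does not resolve the floxed exons, but the level was not lower in the libraries labelled pIpC, so directions below are between labels and not between known Brd9 states. PBS replicate 3 stood apart from the other libraries by gene length. With genes split by length into 3 equal groups, its median log2 deviation from the other PBS libraries was 0.61 over the shortest group and -0.46 over the longest, against deviations between -0.042 and 0.055 for the libraries labelled pIpC.

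Of the 8 genes, 7 reached the mean normalized count of 10 needed for the test, and Meis2 did not. At an adjusted p under 0.1 in limma over all 15020 genes tested, 5 of the 7 were called, Pbx2 and Pknox2 as higher and Meis1, Meis3 and Pbx3 as lower in the libraries labelled pIpC. The contrast called 45.3% of all genes tested, so a count of 5 called genes is not by itself particular to the family. Pknox2 and Meis3 reached the mean of 10 only through the group in which they were high, so their calls add no support to the count. By direction, 25% of all genes were called higher and 20.4% lower, a split of 3750 and 3058 genes in which 55.1% of calls were higher. Under quantile normalization, which moved the median of all genes by -0.13 on the log2 scale, 44.3% of calls were higher. The groups did not overlap for the same 5 members, against 56.8% of all genes tested, and all 5 also changed by 1.5-fold or more, against 38.4%. The median log2 fold change was -0.29 over the 7 members and 0.01 over all genes.

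**Figure D1:**
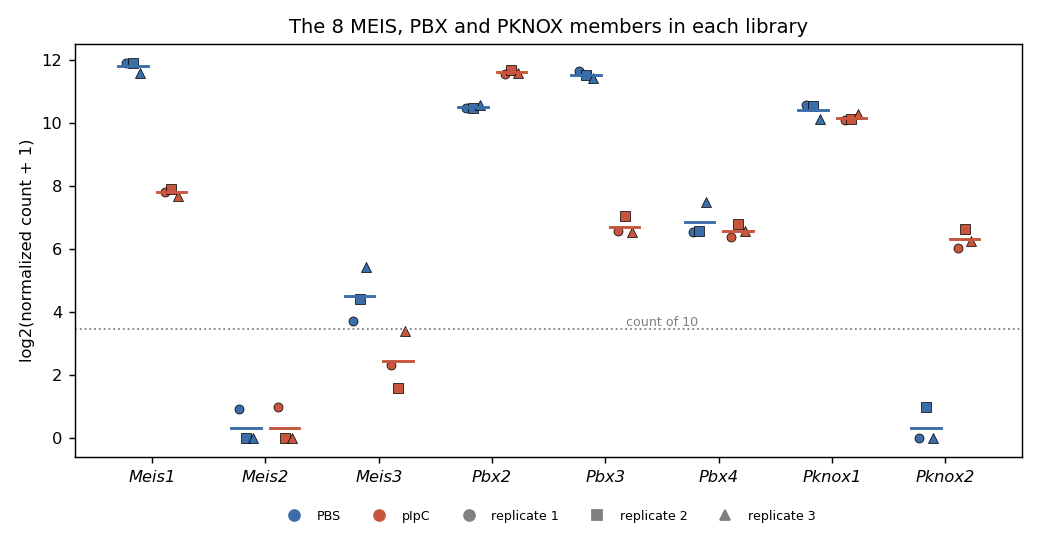
Each point is 1 library, with log2(normalized count + 1) on the vertical axis and the gene on the horizontal axis, PBS in blue and pIpC in red, and the mean of each group as a bar. Meis1 and Pbx3 sit near 11.82 and 11.55 in PBS and near 7.81 and 6.72 in pIpC, Pbx2 lies higher in all 3 libraries labelled pIpC, and Pknox2 is near the floor in PBS only.

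Meis1 (ENSMUSG00000020160, GRCm38 chr11:18879817-19018985, minus strand) encodes the MEIS protein that cooperates with HOXA9 in leukemia. It was counted at 3890.0, 3839.2 and 3131.3 in PBS replicates 1 to 3 and at 226.6, 239.1 and 206.0 in those labelled pIpC. Every PBS library lay above every library labelled pIpC, with PBS replicate 3 the lowest of its group. The means were 3620 ± 424 and 224 ± 16.7 (SD, n = 3 each), so the libraries labelled pIpC held 6.18% of the PBS level, with a log2 fold change of -4.01 (SE 0.14, 95% confidence interval -4.34 to -3.67, adjusted p = 1.68e-05). In bulk RNA a smaller number of cells that express a gene and less RNA per cell cannot be told apart, and this holds for each fall described here.

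Pbx3 (ENSMUSG00000038718, GRCm38 chr2:34171457-34373142, minus strand), the PBX gene most closely linked with Hoxa9 and Meis1 in leukemia, fell further. It gave 3222.0, 2997.1 and 2795.2 normalized counts in the PBS libraries and 94.8, 131.8 and 91.9 in the libraries labelled pIpC. The groups were far apart, and the libraries of each group lay close together. The means were 3005 ± 214 and 106 ± 22.3, which leaves 3.53% of the PBS level, with a log2 fold change of -4.83 (SE 0.18, 95% confidence interval -5.25 to -4.40, adjusted p = 1.68e-05). Only 1.31% of all genes tested were called with a fall of 16-fold or more. Both Pbx3 and Meis1 were among those 197 genes, at ranks 129 and 197 by size of the fall. This cut was not among the planned thresholds, and Meis1 lay just inside it. Meis1 fell short of 16-fold with a pseudocount of 10 (log2 -3.95) and without PBS replicate 1 (-3.95), PBS replicate 2 (-3.96) or pIpC replicate 3 (-3.95).

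The ratio of Meis1 to Pbx3 within a library, compared after their values had been seen, was 0.26 ± 0.10 on the log2 scale in PBS and 1.09 ± 0.21 in the libraries labelled pIpC. All 3 libraries labelled pIpC had a higher ratio than all 3 PBS libraries, and the difference of 0.83 had p = 0.1 in a 2-sided exact permutation test, the smallest p that 3 libraries against 3 allow. Pbx3 thus lost more of its level than Meis1 did, by an amount larger than the spread between libraries.

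Meis3 (ENSMUSG00000041420, GRCm38 chr7:16175090-16186504, plus strand), a MEIS gene with a low level in these cells, had 12.1, 20.2 and 41.9 normalized counts in PBS and 4.0, 2.0 and 9.7 in the libraries labelled pIpC. The highest library labelled pIpC was just below the lowest PBS library, and replicate 3 was the highest of both groups. The means were 24.7 ± 15.4 and 5.24 ± 3.96, from 71 and 16 reads, and the log2 fold change was -2.07 (SE 0.64, 95% confidence interval -3.59 to -0.55, adjusted p = 0.0434). The size depended on the processing, from -1.13 with a pseudocount of 10 to -3.11 with quantile normalization. The call was lost without pIpC replicate 1 (log2 fold change -2.004, adjusted p = 0.121) and without pIpC replicate 2 (log2 fold change -1.65, adjusted p = 0.137).

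Meis2 (ENSMUSG00000027210, GRCm38 chr2:115863064-116065839, minus strand), the remaining MEIS gene, had 1 read in PBS replicate 1 and 1 read in pIpC replicate 1, and 0 in the other 4 libraries. At this depth a difference was not detectable, and no fold change is given.

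Pbx2 (ENSMUSG00000034673, GRCm38 chr17:34591266-34597400, plus strand), a PBX gene expressed in most tissues, changed in the opposite direction from Pbx3. It gave 1438.0, 1425.2 and 1522.1 normalized counts in PBS and 3068.0, 3320.5 and 3121.5 in the libraries labelled pIpC. Each library labelled pIpC lay far above each PBS library, and the spread within either group was small. The means were 1462 ± 52.7 and 3170 ± 133, a log2 fold change of 1.12 (SE 0.11, 95% confidence interval 0.86 to 1.37, adjusted p = 0.000322), or 2.17-fold.

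Pbx4 (ENSMUSG00000031860, GRCm38 chr8:69832491-69872292, plus strand), known best from testis, had 91.7, 94.1 and 182.2 normalized counts in PBS and 82.8, 111.4 and 93.8 in the libraries labelled pIpC. The groups overlapped, and PBS replicate 3 stood well above the other 5 libraries. The log2 fold change was -0.29 with a 95% confidence interval from -1.04 to 0.47 (adjusted p = 0.511), and without PBS replicate 3 it was 0.036 (adjusted p = 0.890), so neither a direction nor an equal level was established.

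Pknox1 (ENSMUSG00000006705, GRCm38 chr17:31564734-31607693, plus strand), the widely expressed PKNOX gene, gave 1546.1, 1496.0 and 1120.3 normalized counts in PBS and 1107.8, 1117.7 and 1266.8 in the libraries labelled pIpC. PBS replicate 3 lay among the libraries labelled pIpC, whereas the other PBS libraries lay above them. The log2 fold change of -0.24 had a 95% confidence interval from -0.62 to 0.14 and an adjusted p of 0.281. Without PBS replicate 3, where 65.1% of all genes were called, it was -0.39 with an adjusted p of 0.0032. With each library's trend with gene length removed, an alternative added after the data were seen, it was -0.40 with an adjusted p of 0.0155.

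Pknox2 (ENSMUSG00000035934, GRCm38 chr9:36890982-37147407, minus strand), the second PKNOX gene, had 1 read in PBS replicate 2 and none in the other PBS libraries. It had 64.9, 99.1 and 75.4 normalized counts in the libraries labelled pIpC, from 240 reads in all. The level was therefore near the floor in every PBS library and clearly above it in every library labelled pIpC. The ratio of counts was 241, with a 95% exact counting interval from 42.8 to 9558, which covers counting error only, and limma gave an adjusted p of 0.000109. Even so the level was low, at 79.8 ± 17.5 normalized counts.

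**Figure D2:**
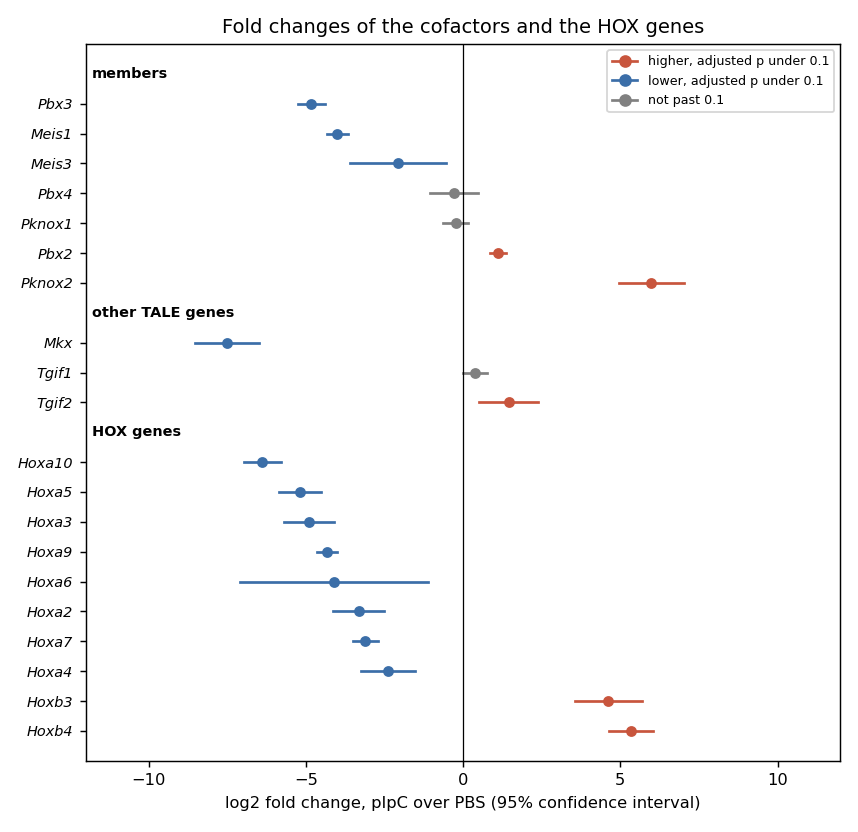
Points are log2 fold changes of the libraries labelled pIpC over PBS with 95% confidence intervals from limma, for 7 of the 8 members (Meis2 was not tested), the other TALE genes and the HOX genes that were tested. Pbx3 (-4.83) and Meis1 (-4.01) fall within the range of the Hoxa genes, and Pbx2 (1.12) lies to the right of 0. Hoxb3 and Hoxb4, which could be tested only because of the libraries labelled pIpC, lie on the side opposite to all tested Hoxa genes.

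Meis1 and Pbx2 changed in opposite directions, so the sequence before their starts is shown for both. Promoter sequences from RefSeq (GRCm38.p6) were matched for 5 of the 8 genes, Meis1, Meis2, Meis3, Pbx2 and Pbx4. The 250 bases upstream of the annotated start are given 5′ to 3′ on the strand of the gene, with CpG dinucleotides, the sites of DNA methylation, in capitals. The Meis1 window is chr11:19018970-19019219 (minus strand). Its last bases overlap the beginning of Meis1 in the GENCODE annotation, where the gene reaches 19018985. The Pbx2 window is chr17:34592009-34592258 (plus strand), which lies within the longer Pbx2 gene of the GENCODE annotation but over none of its exons.
Meis1: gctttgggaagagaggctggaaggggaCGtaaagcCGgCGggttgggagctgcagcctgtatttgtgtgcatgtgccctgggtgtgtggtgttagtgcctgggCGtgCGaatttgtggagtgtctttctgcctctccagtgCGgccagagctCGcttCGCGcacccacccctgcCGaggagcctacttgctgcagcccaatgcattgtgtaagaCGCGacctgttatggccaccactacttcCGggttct
Pbx2: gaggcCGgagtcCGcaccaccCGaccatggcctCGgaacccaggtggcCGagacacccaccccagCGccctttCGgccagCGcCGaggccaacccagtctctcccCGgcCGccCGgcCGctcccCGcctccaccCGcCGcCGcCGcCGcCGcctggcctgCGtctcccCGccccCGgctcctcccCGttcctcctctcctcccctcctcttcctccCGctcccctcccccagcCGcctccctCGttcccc
The Meis1 window held 13 CpG dinucleotides and 59.6% G and C, and the Pbx2 window 27 and 77.6%, against medians of 6 and 52.4% over all 32851 promoters of the same length. On either strand, the MEIS and PKNOX site TGACAG was in 15.9% of all promoters and the PBX-HOX site TGATNNAT in 7.68%, and neither was in any of the 5 windows of the family. The letters CCAAT, found in 33.8% of all promoters, occurred once in the Meis1 window and not in the Pbx2 window. RNA counts do not measure binding or methylation at these windows.

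Some reads of these genes can be shared with neighbours. Exons of Meis1 overlap the same-strand gene Gm37818 over 1029 bases, or 9.77% of the exon length of Meis1, and the antisense gene Gm16140 over 896 bases. Gm37818 was itself lower, at 118.5, 108.3 and 37.3 normalized counts in PBS and 4.0, 6.1 and 5.8 in the libraries labelled pIpC. Exons of Pbx2 overlap the same-strand gene Gpsm3 over 227 bases, 6.24% of the exon length of Pbx2, and 4.93% of the 50-base windows of Pbx2 also occur in Gpsm3. Gpsm3 was itself higher, at 1997.8, 2065.9 and 3551.2 normalized counts in PBS and 3676.9, 4039.7 and 4462.7 in the libraries labelled pIpC, and its part in the count of Pbx2 was not tested. No such window was shared between members, although 17.0% of the windows of Meis1 occurred in transcripts of other genes. This share includes the bases where Meis1 overlaps Gm37818 and Gm16140. Reads in such windows could not be assigned to Meis1 with certainty.

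To compare levels between genes, normalized counts were divided by the kilobases of annotated exon. In PBS the order was Pbx3 at 492 ± 35.0 per kilobase, Pbx2 at 402 ± 14.5, Meis1 at 344 ± 40.3, Pknox1 at 200.1 ± 33.6, Pbx4 at 55.3 ± 23.3 and Meis3 at 7.80 ± 4.85, with Pknox2 and Meis2 near 0. Neighbours in this order did not overlap between libraries, except Pknox2 and Meis2. Per kilobase of the longest transcript Meis1 (479) moved just above Pbx2 (476), so the order of that pair depends on the length used.

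In the libraries labelled pIpC, Pbx2 led at 871 ± 36.5 per kilobase of exon, followed by Pknox1 at 168 ± 12.8, Pbx4 at 43.3 ± 6.49, Meis1 at 21.3 ± 1.59 and Pbx3 at 17.4 ± 3.64. Meis1 and Pbx3 overlapped between libraries, and their order turned with the longest transcript. Below them stood Pknox2 at 7.72 ± 1.70, Meis3 at 1.65 ± 1.25 and Meis2 near 0. Pbx3, first of the 8 genes in PBS, was thus at rank 5 in the libraries labelled pIpC.

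The make-up of the 8 genes shifted to a single one. Over the summed level per kilobase of the 8 genes, Pbx2 held 26.8% ± 2.11 (SD, n = 3) in PBS and 77.1% ± 0.883 in the libraries labelled pIpC. Pbx3 went from 32.8% ± 0.94 to 1.53% ± 0.264, and Meis1 from 22.9% ± 1.81 to 1.88% ± 0.13. For each of these 3 genes no library of one group overlapped the other group, with p = 0.1 in a 2-sided exact permutation test, unadjusted and the smallest the design allows. Pknox1 held 13.3% and 14.9% (exact permutation p = 0.4) and Pbx4 3.74% and 3.82% (exact permutation p = 1.0).

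By subfamily, MEIS genes accounted for 23.4% of the sum in PBS and 2.03% in the libraries labelled pIpC, PKNOX genes for 13.3% and 15.6%, and the 3 PBX members for 63.3% and 82.4%. The summed level per kilobase of these 3 PBX members was 949 ± 21.2 in PBS and 932 ± 46.4 in the libraries labelled pIpC, a difference within the spread between libraries. Per kilobase of the longest transcript, however, it was 1606 ± 42.8 and 1132 ± 59.9 without overlap (exact permutation p = 0.1), so whether the sum differed depends on the length used. Among the 3 PBX members, Pbx3 held 51.8% ± 3.63 in PBS and 1.86% ± 0.295 in the libraries labelled pIpC, and Pbx2 held 42.3% ± 1.33 and 93.5% ± 0.723. The sum over all 8 genes was 1500 ± 65.7 per kilobase in PBS and 1130 ± 46.8 in the libraries labelled pIpC.

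**Figure D3:**
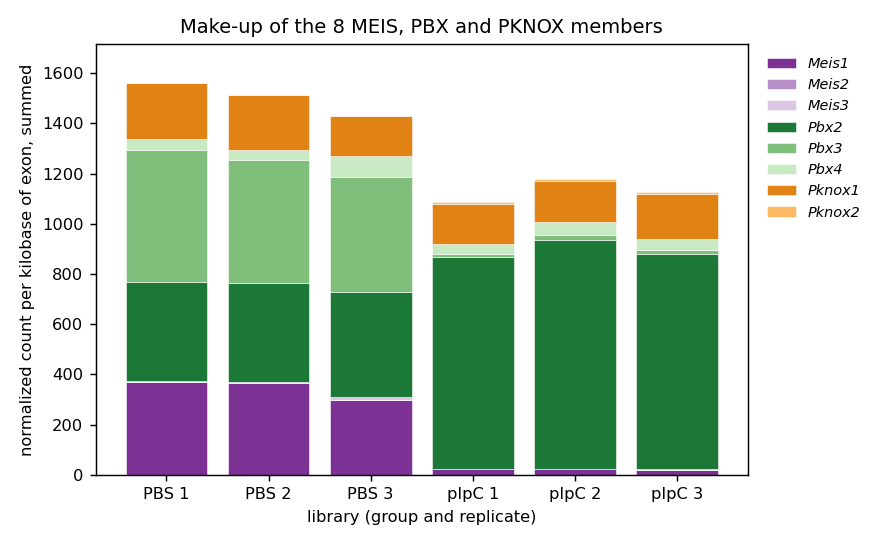
Each bar is 1 library and its height is the summed normalized count per kilobase of exon, split by gene over the 8 members. The Meis1 and Pbx3 segments fill much of the 3 PBS bars and are thin in the 3 pIpC bars, where Pbx2 makes up most of the height.

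The other TALE homeobox genes examined were Tgif1, Tgif2, Mkx and the Irx genes. Of these 9, 3 were tested, with 1 called higher, 1 lower and 1 not, where 45.3% of all genes tested were called. Tgif2, a TALE repressor of TGF-beta signalling, was called higher at 12.6 ± 0.534 against 38.7 ± 16.3 normalized counts (log2 1.45, adjusted p = 0.0277). Tgif1, its close relative, had a log2 difference of 0.38 (adjusted p = 0.112). Mkx, a tendon regulator, had 163.5, 245.0 and 294.2 normalized counts in PBS and a single read in all libraries labelled pIpC, a count ratio of 688 (95% exact counting interval 123 to 27219) with an adjusted p of 4.49e-05.

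The HOX genes are the DNA-binding partners of the family. Of 39 Hox genes 10 were tested, and 8, all of the Hoxa cluster, were called lower, against 20.4% of all genes tested. The median log2 fold change was -3.72 over the 10 and 0.01 over all genes. Hoxa9, the main partner of MEIS1 in this leukemia, gave 5130 ± 195 and 256 ± 28.4 normalized counts, so 4.99% of the PBS level was left (log2 -4.32, adjusted p = 1.27e-05). Hoxa10, a further partner, gave 1537 ± 135 and 17.8 ± 4.87, or 1.16% (log2 -6.38, adjusted p = 1.76e-05). The falls of Meis1 and Pbx3 lie within the range of the tested Hoxa genes, from -6.38 for Hoxa10 through -5.18 for Hoxa5 and -4.90 for Hoxa3 to -2.39 for Hoxa4.

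Both tested Hoxb genes moved the other way. They reached the mean of 10 only through the libraries labelled pIpC, so their direction adds no support to a contrast between the clusters. Likewise Hoxa2, Hoxa4 and Hoxa6 reached it only through the PBS libraries. Hoxb4, which promotes expansion of hematopoietic stem cells, rose from 9.06 ± 3.21 to 393 ± 40.9 normalized counts (log2 5.34). Hoxb3 had 1 read in PBS and 25.0, 26.6 and 37.7 normalized counts in the libraries labelled pIpC. The sum of all Hox genes was 9942 to 10579 normalized counts in PBS libraries and 872 to 1090 in those labelled pIpC.

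Within a library, the log2 ratio of Meis1 to Hoxa9 was -0.51 ± 0.22 in PBS and -0.19 ± 0.20 in the libraries labelled pIpC, and the groups overlapped (exact permutation p = 0.2). The ratio of Pbx3 to Hoxa9 was -0.77 ± 0.16 and -1.28 ± 0.25, without overlap (exact permutation p = 0.1). These ratios, with that of Meis1 to Pbx3, are 3 comparisons made after the values were seen, and their p-values are unadjusted.

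The genes whose values over the 6 libraries were most like those of a member were ranked by the root mean square difference of centred log2 values, among 11672 genes with a mean of at least 50. Such a ranking mostly reflects the difference between the groups. For Meis1 they were Clec2i (0.167), Adgre1 (0.197), which encodes the macrophage antigen F4/80, the organic cation transporter Slc22a3 (0.206), A530010L16Rik (0.225) and Hoxa9 (0.235). For Pbx3 they were Hoxa3 (0.201), Paqr5 (0.235), Mlph (0.259), Hoxa5 (0.282) and Tln2 (0.294). Hoxa genes were thus among the 5 nearest to both.

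Pbx2 was followed most closely by Flot2 (0.045), which encodes a membrane raft protein, Zfand3 (0.046), Ccdc88b (0.052), Efhd2 (0.052) and Fam217b (0.056). For Pknox2 the nearest were Gramd2 (0.156), the ETS factor gene Spib (0.180), the receptor gene Acvrl1 (0.184), Actn1 (0.206) and Ceacam10 (0.242). Pknox2 was near the floor in PBS, so its centred log2 values depend on the pseudocount. The ranking with another pseudocount was not tested. For Meis3 the differences were larger, with Ctsk (0.30), the protease of osteoclasts, the nearest, then Dcxr (0.406), Serf1 (0.408), Lmna (0.447) and AC102496.1 (0.455).

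Of 14 genes that control or bind MEIS and PBX proteins, 3 were called higher, 1 lower and 10 not. Over all genes tested, 25% were called higher and 20.4% lower. The median log2 fold change was 0.32 over the 14 and 0.01 over all genes. Men1, whose product menin tethers MLL fusion proteins to Hoxa9 and Meis1, was higher at 607 ± 76.3 against 1098 ± 10.4 normalized counts (log2 0.86, adjusted p = 0.0028). Pbxip1, which encodes a PBX-interacting protein that hinders DNA binding of HOX-PBX complexes, was higher at 1659 ± 64.3 against 2922 ± 84.1 (log2 0.82, adjusted p = 0.0012). Gsk3b, a kinase that maintains the HOX and MEIS1 program in MLL leukemia, was higher by 0.44 (adjusted p = 0.0866), and Elf1, an ETS factor that can bind the Meis1 promoter, was lower by a log2 fold change of -0.82 (adjusted p = 0.0277).

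Genes linked to MEIS1 and HOXA9 in leukemia did not share a direction. Of 19, 11 were called higher, 4 lower and 4 not, where 25% of all genes tested were called higher and 20.4% lower. Trib2, Pf4, Mef2c and Ccnd1 reached the mean of 10 only through the libraries labelled pIpC, so their calls add no support to this count. The median log2 fold change was 1.23 over the 19 and 0.01 over all genes. The lowest were Eya1, a transcriptional coactivator, at 1339 ± 335 against 66.5 ± 14.4 normalized counts (log2 -4.30), the progenitor antigen Cd34 (-1.40) and the cell cycle kinase Cdk6 (-1.31). The highest were Mef2c, a myeloid and lymphoid transcription factor, at 5.53 ± 5.11 against 1086 ± 26.1 (log2 7.72), the platelet chemokine Pf4 at 2.21 ± 2.05 against 398 ± 105 (log2 7.21), and Trib2, a pseudokinase, with 1 read in PBS against 209 in the libraries labelled pIpC. Flt3, the receptor gene used as a MEIS1 target, was also among the genes called higher, with a log2 fold change of 1.45 (adjusted p = 0.0072).

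**Figure D4:**
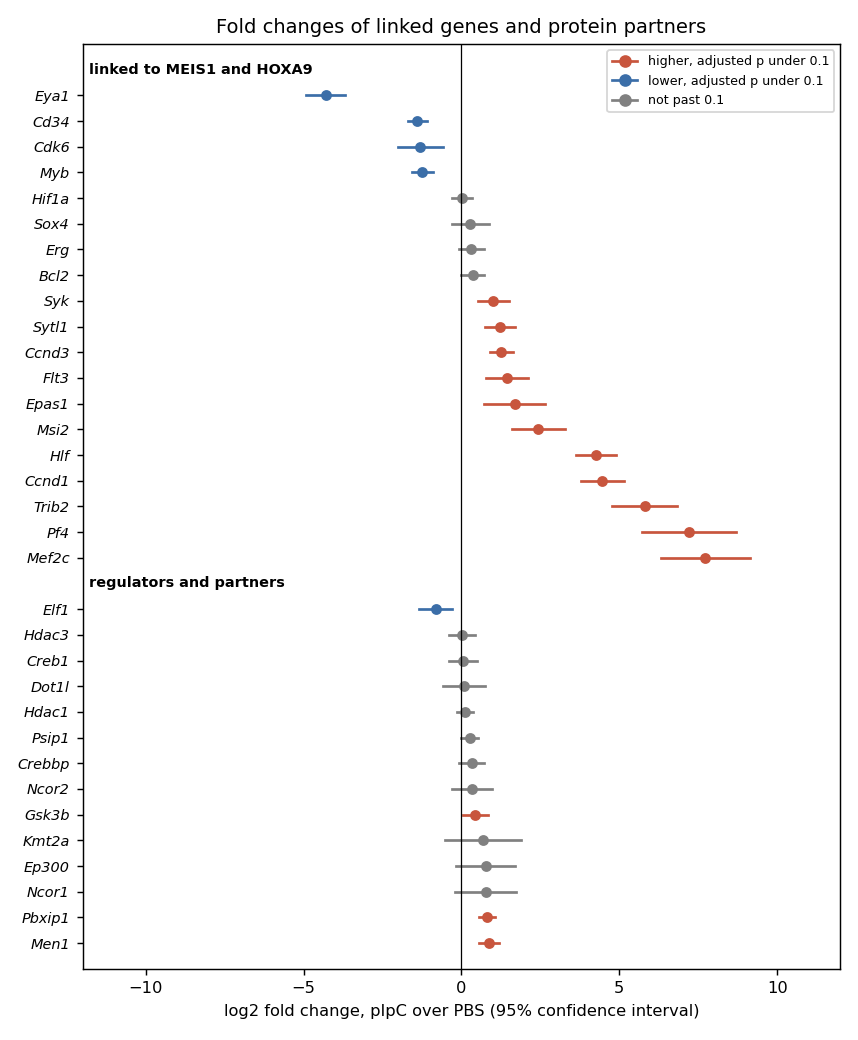
Points are log2 fold changes of the libraries labelled pIpC over PBS with 95% confidence intervals from limma, for 19 genes linked to MEIS1 and HOXA9 and 14 regulators and partners. The linked genes run from -4.30 (Eya1) to 7.72 (Mef2c) on both sides of 0, whereas the regulators and partners lie between -0.82 (Elf1) and 0.86 (Men1).

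Markers of other cells moved with the same labels. The counts below stand against 25% of all genes tested called higher and 20.4% called lower. Many erythroid, B cell, T and NK cell, megakaryocyte and stem cell markers reached the mean of 10 only through the libraries labelled pIpC. Their calls add no support to these counts. All 10 maturing neutrophil markers were called higher, and their summed level was 18904 to 43885 normalized counts in PBS libraries and 1899960 to 1971766 in those labelled pIpC. All 9 erythroid markers examined were higher (21.6 to 33.9 against 4433 to 6181, with Slc4a1 at 0 in PBS), as were all 10 B cell markers (137 to 306 against 1419 to 2668, with Ms4a1 at 0 in PBS). The 7 tested of 10 T and NK cell markers were higher (190.3 to 324 against 3955 to 4595, of which Nkg7, a granule gene of cytotoxic cells, made up a mean of 210 and 4023), as were the 9 tested of 10 megakaryocyte markers (1277 to 1679 against 3617 to 4562, with Gp1bb, Gp6 and Ppbp at 0 in PBS).

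Of 10 stem and multipotent progenitor markers 8 were tested, 6 higher and 2, Cd34 and Gata2, lower, with sums of 6151 to 7513 against 3329 to 3588. Of 10 macrophage markers 9 were tested, 6 higher and 3 lower, with sums of 11183 to 15317 against 6706 to 8556 and Marco at 0 in PBS. The lower sum was carried by Adgre1 (4307 ± 138 against 310 ± 44.5) and Vcam1 (8421 ± 2115 against 4444 ± 602), with Cd68 also lower, whereas C1qa, C1qb, C1qc, Mrc1, Mertk and Cd163 were called higher. Of 10 stromal and endothelial markers 8 were tested, 4 higher and 2 lower, with overlapping sums of 1857 to 2909 against 2016 to 2327. The 6 markers of leukemic and immature myeloid cells were present in every library, with 3 higher and 1 lower. Their sums were 29544 to 32781 against 35733 to 39436. Itgam (2902 ± 678 against 7798 ± 364) and Ptprc (6337 ± 1627 against 12579 ± 911) carried the higher sum, with Csf2rb also higher. Cd34 was called lower (5309 ± 524 against 2008 ± 79.1), and Kit and Fcgr3 had lower means but were not called. The part of any of these cell types in the changes of Meis1, Pbx3, Pbx2 and Pknox2 was not tested.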

How the data were processed

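RNA-seq libraries from 3 PBS and 3 pIpC samples were compared. The table the authors deposited holds normalized counts of 55487 genes, a signal in which 1 read has a fixed value per library and 100% of values came out as whole reads (tolerance 0.01). The submitters' processing notes name HISAT2 2.2.1, SAMtools, featureCounts from Subread, edgeR and GRCm38, whereas the paper's methods name STAR and RSEM. The labels state unstranded poly(A) libraries of GFP+ cells and lethal irradiation in 2 fractions of 450 cGy, and the methods stranded libraries of c-Kit+ cells and sublethal irradiation. Without strand, reads of antisense genes cannot be told apart. Symbols were found for 55141 IDs in GENCODE M21, and promoters came from RefSeq.

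limma 3.58.1 (R 4.3.3) with an intensity trend was run on log2(normalized count + 1) of the 15020 genes with a mean of at least 10, with Benjamini-Hochberg adjusted p under 0.1. Fold changes on this scale understate those of low genes. A count ratio with an exact interval was used where a group held 1 to 3 reads. Exact permutation tests were 2-sided. Alternatives were pseudocounts of 0.1 and 10, a minimum mean of 50 or none, no trend, centring on the median or quantile normalization, edgeR 4.0.16 and DESeq2 1.42.0 on recovered reads, an adjusted p under 0.05, a replicate block, each library left out, and for shares the longest transcript. Removal of the length trend was added after the data were seen. The scripts were tested on simulated data.

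The members and gene lists were chosen with earlier results of these data known. The genes named are the members, Brd9, Hoxa9, Hoxa10, those called in each pathway list (or the 3 highest and 3 lowest where more than 6 were called), and the 5 genes most like each member called past 1.5-fold. A few listed genes are not reported here and were left out of their lists. Tgif1, Flt3, Ccnd1, Hoxa4, single markers and overlapping genes were chosen after their values were seen. Marker lists are given as counts and sums.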

Additional observations from a re-analysis of the deposited data

How the results depend on the processing

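Over 142 refits of Brd9 and the 7 tested members, 137 kept the direction and the side of the threshold. When single libraries were omitted, log2 fold changes ranged from -4.11 to -3.95 for Meis1, -2.55 to -1.61 for Meis3, 1.08 to 1.15 for Pbx2, -4.99 to -4.73 for Pbx3, -0.46 to 0.036 for Pbx4, -0.39 to -0.16 for Pknox1, 5.81 to 6.31 for Pknox2 and 0.12 to 0.24 for Brd9. Of these, Meis3 lost its call without pIpC replicate 1 or 2, Pknox1 gained one without PBS replicate 3, and Pbx4 turned direction without PBS replicate 3. Without the length trend Pknox1 was called at -0.40, the same direction with an adjusted p of 0.0155, and the cause was not tested. The difference in share ranged from -0.46 to 1.09 percentage points for Pbx4 and from -0.0015 to 0.0025 for Meis2, so neither had a stable sign. The number of genes called ranged from 4650 without pIpC replicate 2 to 9783 without PBS replicate 3, and was 6901 with edgeR, 7451 with DESeq2 and 7322 with quantile normalization against 6808. The replicate numbers did not pair the libraries (correlations -0.117, 0.143 and 0.0405), and a replicate block gave 6095 calls and -4.01 for Meis1, with no change of a member's call. Pknox2 moved from 3.10 with a pseudocount of 10 to 8.46 with 0.1, so its fitted fold change is no measure of size, and Meis3 from -1.13 with a pseudocount of 10 to -3.11 with quantile normalization. With a mean of at least 50, Meis3 and Pknox2 gave no value. Depth limits Meis2 and Meis3, and 3 libraries a group limit every share.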

Other observations

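The nearest tested genes on either side of the members were examined after the members' values had been seen. Genes that overlap a member, such as Gm37818 with Meis1 and Gpsm3 with Pbx2, were not among them. C230014O12Rik, a noncoding gene 63.7 kb from Pbx3 on the side of lower coordinates, had 252 ± 11.5 normalized counts in PBS (SD, n = 3) and 3 reads in all in the libraries labelled pIpC, a count ratio of 254 with a 95% exact counting interval from 86.5 to 1233. On the other side of Pbx3, Mapkap1, a subunit of the mTORC2 kinase complex 33.6 kb away, was called higher with a log2 fold change of 0.31 (limma, adjusted p = 0.0806), and beyond C230014O12Rik the ESCRT gene Mvb12b stood at 0.16 (adjusted p = 0.519). Farther out on the side of Mapkap1, Gm13408 (191.9 kb away) was called lower, at 84.5 ± 48.4 against 35.2 ± 3.98 normalized counts (log2 -1.11, adjusted p = 0.0712).

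Meis1 lies far from its nearest tested protein-coding neighbours. Spred2, an inhibitor of RAS-MAPK signalling 905.4 kb away, was higher at 185 ± 68.2 against 709 ± 39.5 normalized counts (log2 2.01, limma, adjusted p = 0.00226), and Etaa1, a replication stress gene 925.9 kb away on the other side, had a difference of 0.02 (adjusted p = 0.933). Next to Pbx2, Ager, a receptor gene 0.5 kb away, was higher at 80.7 ± 29.5 against 223 ± 29.6 (adjusted p = 0.00691), whereas Rnf5 (3.7 kb away) had a difference of 0.21 (adjusted p = 0.332). On the other side, Notch4 (2.8 kb away) had a difference of 0.53 (adjusted p = 0.312), and the pseudogene Btnl7-ps (43.6 kb away) was lower at 88.8 ± 32.0 against 6.23 ± 4.69 (log2 -3.75, adjusted p = 0.00188). The neighbours of Pknox2 did not follow its rise as a group. Ei24 (-0.80, adjusted p = 0.00363) and Tmem218 (-1.06, adjusted p = 0.00912) were lower, Slc37a2 (1.70, adjusted p = 0.00508) was higher and Stt3a (-0.08, adjusted p = 0.639) was not called.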
